A study of Mus musculus with 8 samples.

Results

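The keratin genes of simple epithelia Krt7, Krt8, Krt18, Krt19, Krt20 and Krt36 were followed through the cell types of the mouse distal colonic mucosa. The 6 genes were chosen by symbol from the 53 keratin genes among the 31053 genes of the deposited matrix, and each symbol matched 1 row. Single cells had been profiled by droplet sequencing of transcript 3′ ends in 8 mice of 8 weeks of age. The 4 KO-labelled mice (mice 2, 3, 6 and 7) carried floxed Spry2 alleles together with a Cre driven by the Villin promoter, a promoter used in the mouse to reach the gut epithelium. Littermates with the same floxed alleles and no Cre made up the WT-labelled group, again 4 mice (1, 4, 5 and 8). Spry2 encodes Sprouty2, which dampens signals of growth factor receptors, and the design compares colonic cells with and without its deletion in the epithelium.

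Keratins form the intermediate filaments of epithelial cells, which give the cell layer mechanical strength and anchor to desmosomes. Each filament unit pairs an acidic type I keratin with a basic type II keratin, so a cell needs both kinds. Among the genes described here Krt7 and Krt8 encode type II keratins, and Krt18, Krt19, Krt20 and Krt36 type I keratins. Krt8 with Krt18 and Krt19 is the main set of the intestinal epithelium, Krt20 is a known marker of differentiated cells near the lumen, Krt7 is typical of ducts and urothelium, and Krt36 belongs to the keratins first described in hair.

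On mm10 with GENCODE M21, the type II genes lie on chromosome 15, Krt7 at chr15:101411043-101430313 on the plus strand with 9 exons and Krt8 at chr15:101996698-102004482 on the minus strand with 9 exons. Krt18, although a type I gene, lies beside Krt8 at chr15:102028180-102032027 on the plus strand with 7 exons, 23697 bases away. The other type I genes are on the minus strand of chromosome 11, Krt19 at chr11:100140810-100148665 with 6 exons, Krt20 at chr11:99428403-99438150 with 8 exons and Krt36 at chr11:100102007-100105626 with 7 exons. Promoter sequences from RefSeq on GRCm38.p6, 250 bases before to 50 bases after the annotated start, were matched for 5 of the 6 genes, all but Krt19. Shown here are those of the neighbours Krt8 and Krt18, whose transcripts were present in different proportions from type to type, and of Krt20, the keratin with the clearest enterocyte pattern. Capitals mark the letters TATAAA found on either strand, with overlapping matches joined.
Krt8 (chr15:102004293-102004592, minus strand): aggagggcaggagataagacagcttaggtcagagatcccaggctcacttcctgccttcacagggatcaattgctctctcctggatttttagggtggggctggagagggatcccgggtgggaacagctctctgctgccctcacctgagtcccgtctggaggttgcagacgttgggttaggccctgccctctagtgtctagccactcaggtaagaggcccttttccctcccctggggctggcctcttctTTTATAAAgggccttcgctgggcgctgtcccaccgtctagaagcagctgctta
Krt18 (chr15:102027966-102028265, plus strand): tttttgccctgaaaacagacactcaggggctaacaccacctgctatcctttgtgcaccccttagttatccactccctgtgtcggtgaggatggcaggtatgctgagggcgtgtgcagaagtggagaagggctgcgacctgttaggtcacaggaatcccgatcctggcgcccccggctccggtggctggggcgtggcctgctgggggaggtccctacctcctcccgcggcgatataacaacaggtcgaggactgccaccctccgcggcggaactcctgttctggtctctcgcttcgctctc
Krt20 (chr11:99438104-99438403, minus strand): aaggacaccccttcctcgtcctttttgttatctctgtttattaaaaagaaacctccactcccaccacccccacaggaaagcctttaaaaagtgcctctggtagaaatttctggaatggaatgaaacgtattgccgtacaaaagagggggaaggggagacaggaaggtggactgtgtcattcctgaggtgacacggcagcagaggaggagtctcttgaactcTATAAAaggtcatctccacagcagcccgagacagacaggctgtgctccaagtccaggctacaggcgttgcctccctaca
The motif began 29 bases before the annotated start in Krt20 and 1 base before it in Krt8, where a match on the opposite strand overlapped it. It was not found in the windows of Krt7, Krt18 and Krt36. Of 32851 promoter windows of the same length, 13.62% held it on either strand. The GC-rich letters GGGCGG, the core of Sp1-type sites, occurred on either strand at 4 places in the window of Krt7 and in none of the other 4 windows, against 35.66% of all windows. A match is a description of the letters and does not show that a factor binds there.

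The matrix held 53080 cells with 500 to 113660 UMIs each, where a UMI (unique molecular identifier) stands for 1 captured transcript, and 17.0 to 37.3 M (mega) UMIs per mouse. Leaving out 1316 cells that the authors named doublets left 51764, of which the authors classed 23787 as epithelial (10558 KO-labelled and 13229 WT-labelled), with 5.70 to 20.1 M UMIs per mouse. The authors' epithelial subtype names were given for 6502 WT-labelled cells and for none of the KO-labelled ones, so levels by subtype come from the WT-labelled mice and genotypes were compared over all epithelial cells and over the authors' numbered clusters. Epithelial cells with 50% or more mitochondrial UMIs made up 53.5 to 79.6% in mice 1 to 4 and 11.1 to 37.2% in mice 5 to 8, and each of these sets holds 2 mice of each label. Cell barcodes found in more than 1 library numbered 356, with up to 62 shared by a pair of libraries (mice 4 and 6). Spry2 transcripts stood at 12.6 to 37.7 CPM (UMIs scaled to a common total, here with TMM factors) in the epithelial cells of KO-labelled mice and 14.8 to 29.8 CPM in those of WT-labelled mice. The 3′ tags do not show whether the floxed part was deleted, so the genotype rests on the labels.

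The named subtypes were checked against marker genes. The enterocyte markers Car4 and Aqp8 had medians over mice of 2996 and 2821 CPM in enterocytes and at most 263 CPM in the other subtypes. Slc26a3 and Ceacam20 had medians of 2013 and 552 CPM in enterocytes and 489 and 134 CPM in stem-progenitor cells. Guca2a overlapped between these subtypes, with 1024 to 1610 CPM in enterocytes and 702 to 1414 CPM in stem-progenitor cells. The mucin gene Muc2 reached 17254 CPM in goblet cells, 15011 CPM in secretory-progenitor cells and 5247 CPM in deep crypt secretory cells (written DCS in the deposited table). Tff3, Clca1 and Fcgbp, further goblet markers, had medians of 25755, 38097 and 20862 CPM in goblet cells. In secretory-progenitor cells they had 1135, 9032 and 6502 CPM, and in deep crypt secretory cells 2600, 10830 and 3506 CPM. For these genes the goblet range over mice lay above the ranges of both. Spdef, also a goblet marker, had 100.6 CPM in goblet, 185.6 CPM in secretory-progenitor and 182.8 CPM in deep crypt secretory cells, with overlapping ranges. Reg4, a deep crypt secretory marker, stood at 3179 CPM in that subtype and 3378 CPM in secretory-progenitor cells. Spink4 and Agr2, further markers of deep crypt secretory cells, had medians of 29519 and 15279 CPM there and 15616 and 9660 CPM in secretory-progenitor cells. Between these subtypes the ranges over mice lay apart for Spink4 and overlapped for Agr2. The tuft marker Dclk1 stood at 1967 CPM in tuft cells against at most 9.89 CPM elsewhere. In stem-progenitor cells the cycling marker Mki67 had a median of 100.2 CPM, and the stem cell markers were low: Smoc2 had 26.5 CPM, Axin2 16.9 CPM, Lgr5 5.78 CPM and Ascl2 5.61 CPM. Their medians in enterocytes were at most 0.553 CPM, while in tuft cells (2 mice) the 4 genes had 35.0, 10.3, 8.40 and 10.3 CPM. Secretory-progenitor cells had medians of 19.1, 20.9, 5.28 and 6.30 CPM for the same genes and 96.6 CPM for Mki67. These markers thus did not set stem-progenitor cells apart from them. Of the enteroendocrine markers, Chga, Chgb and Neurod1 had their highest medians in stem-progenitor cells (45.0, 122 and 5.85 CPM). Pcsk1 had its highest in tuft cells (8.40 CPM). Trp63 and Krt5, markers of squamous and basal epithelium, held 11 and 3 UMIs in all cells.

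Every named epithelial subtype carried Krt8 and Krt18 transcripts above the range of the non-epithelial types with at least 20 cells in a mouse. Krt7, Krt19 and Krt20 set some subtypes apart. In summed UMIs over all epithelial cells the type II keratin Krt8 led with 335211, ahead of the type I keratins Krt19 with 159212, Krt18 with 54966 and Krt20 with 31528, and of Krt7 with 6292 and Krt36 with 1015. Since 3′ tags count a transcript once whatever its length, these UMI numbers compare genes without a length correction, but capture of the 3′ end can differ between genes. Levels below are CPM of the sum of a mouse's cells of 1 subtype, with no scaling between subtypes, for mice with at least 20 cells: 4 mice for enterocytes (2870 cells), stem-progenitor (2378), deep crypt secretory (441) and secretory-progenitor cells (409), 3 mice for goblet cells (287) and 2 mice for tuft cells (117). The subtypes come from a clustering of the same transcripts, so their differences are a description with no test.

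**Figure D1:**
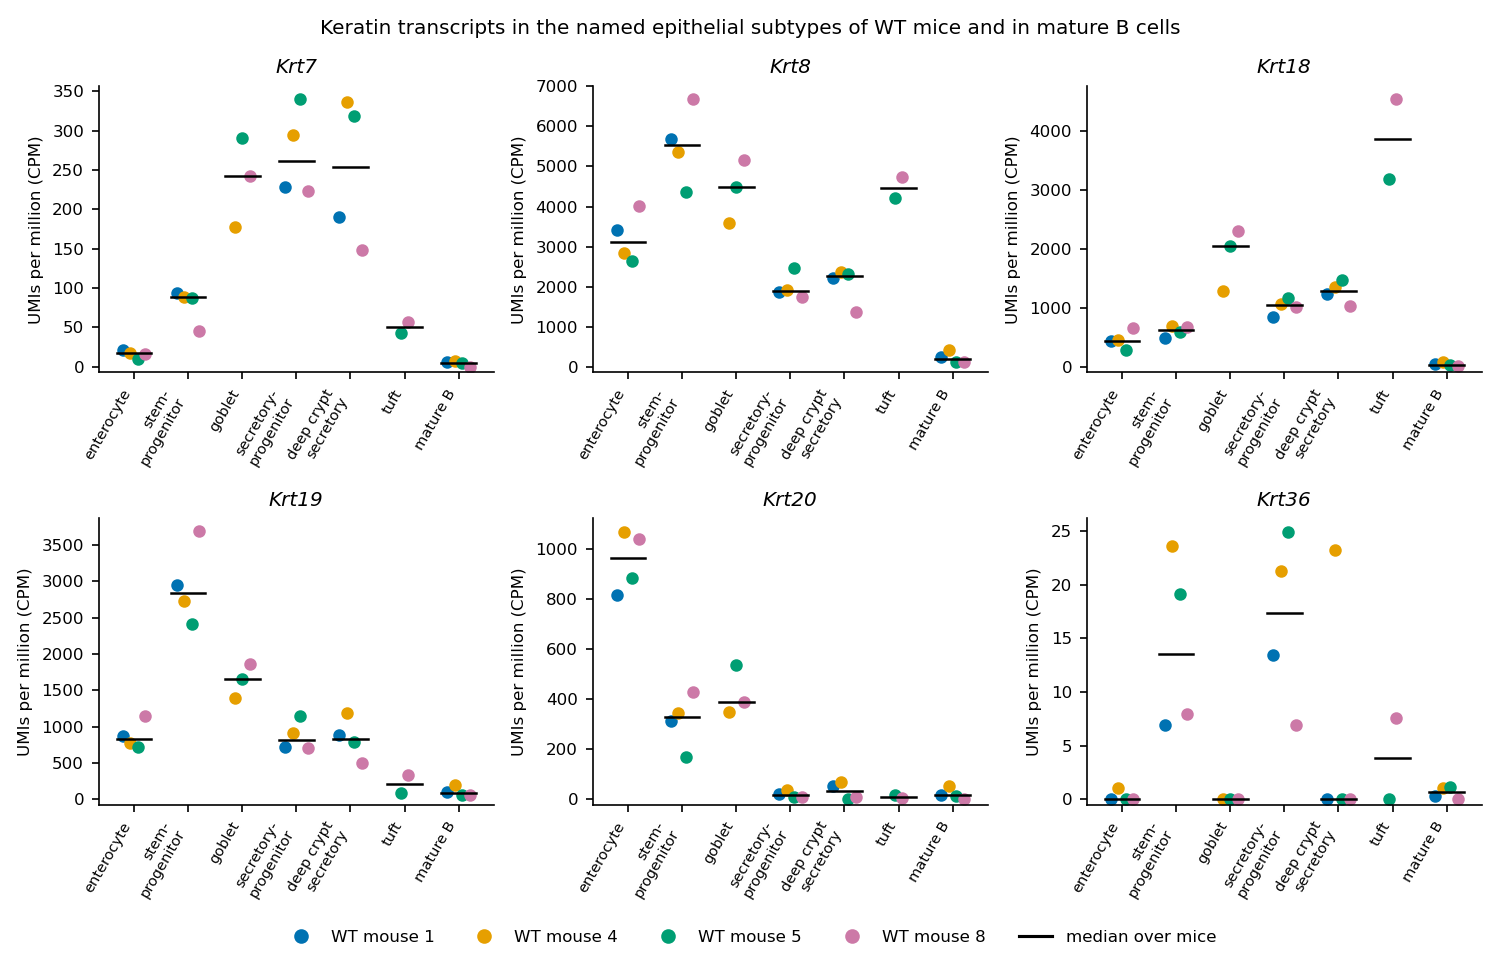
Levels of the 6 keratins in CPM (vertical axes, linear, a scale for each gene) in the 6 named epithelial subtypes and in mature B cells of the 4 WT-labelled mice, each point a mouse with at least 20 cells of the type and each line the median over mice. Krt7 is high in the 3 secretory subtypes of goblet, secretory-progenitor and deep crypt secretory cells, Krt19 in stem-progenitor cells, Krt18 in tuft cells and Krt20 in enterocytes, while Krt8 is well above the B cell level in all of them.

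Krt8, the type II partner common to all colonic epithelial cells, was at 5687, 5366, 4360 and 6680 CPM in stem-progenitor cells of mice 1, 4, 5 and 8. Goblet cells had 3589, 4490 and 5162 CPM in mice 4, 5 and 8, and tuft cells 4221 and 4729 CPM in mice 5 and 8. These 3 subtypes overlapped in their range over mice. Enterocytes came next with 2636 to 4018 CPM, below tuft cells without overlap, followed by deep crypt secretory cells (1365 to 2355 CPM) and secretory-progenitor cells (1732 to 2470 CPM), which overlapped each other. The median cell had 19.0 to 44.7% mitochondrial UMIs in enterocytes of the 4 mice and 0.23 to 1.25% in deep crypt secretory cells. In CPM of the other UMIs enterocytes had 4288 to 5610 and overlapped tuft cells at 5288 and 5505. Within the lower pair, deep crypt secretory cells of mouse 8 stood apart at 1365 CPM against 2212 to 2355 CPM in the other mice. The span between the highest and lowest subtype median was thus 5527 against 1891 CPM, the narrowest relative range of the 6 genes.

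Krt18, the type I partner encoded next to Krt8, ordered the subtypes differently. Tuft cells, chemosensory cells of the epithelium, had 3181 and 4531 CPM in mice 5 and 8, above every other subtype. Goblet cells followed with 1283, 2044 and 2308 CPM, overlapping with deep crypt secretory cells (1031 to 1469 CPM), which overlapped with secretory-progenitor cells (844 to 1162 CPM). Stem-progenitor cells with 480 to 686 CPM and enterocytes with 292 to 664 CPM were lowest and overlapped each other. Over the 21 sums of a WT-labelled mouse and a named subtype, which share mice and libraries, Krt8 and Krt18 had a Pearson correlation of 0.06 on the scale of log2(CPM + 10).

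Krt19, the smallest keratin, which can also pair with Krt8, was at 2952, 2728, 2421 and 3689 CPM in stem-progenitor cells of mice 1, 4, 5 and 8. Goblet cells were next with 1398 to 1858 CPM, separated from both sides of the order. Deep crypt secretory cells (502 to 1183 CPM), enterocytes (724 to 1147 CPM) and secretory-progenitor cells (703 to 1140 CPM) overlapped one another. Tuft cells had 81.3 and 326 CPM in mice 5 and 8, the lowest values and the only subtype in which Krt19 lay within the range of non-epithelial cells, which reached 410.02 CPM. That highest value was in the inactive T cells of mouse 4. Mature B cells of mice 5 and 8 had 60.1 and 57.6 CPM, below the tuft cells of the same mouse.

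Krt20, the keratin of differentiated surface cells, was at 816, 1070, 886 and 1042 CPM in enterocytes of mice 1, 4, 5 and 8. All 4 values lay above those of goblet cells (350 to 538 CPM), which overlapped with stem-progenitor cells (171 to 428 CPM). Deep crypt secretory cells had 54.3, 69.6, 0 and 10.2 CPM, secretory-progenitor cells 8.66 to 35.4 CPM and tuft cells 3.80 and 16.3 CPM. Those 3 subtypes overlapped and lay within or just above the non-epithelial range of 0 to 61.3 CPM.

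Krt7, a type II keratin of ducts, was at 228, 294, 340 and 223 CPM in secretory-progenitor cells of mice 1, 4, 5 and 8. Deep crypt secretory cells had 190, 336, 318 and 148 CPM and goblet cells 177, 291 and 243 CPM in mice 4, 5 and 8, and the 3 secretory subtypes overlapped. Stem-progenitor cells were lower, with 93.5, 88.6, 87.6 and 45.0 CPM, and overlapped with tuft cells at 43.3 and 56.9 CPM. Enterocytes had 10.3 to 21.1 CPM, within the non-epithelial range of 0 to 30.01 CPM, whose highest value was in endothelium of mouse 4. Mature B cells of the WT-labelled mice had 0 to 7.55 CPM. Enterocytes thus had the highest Krt20 and the lowest Krt7, while tuft cells were low in both. The correlation of Krt7 and Krt20 over the same 21 sums was -0.57, a description over sums that share mice and libraries.

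Krt36, a type I keratin, was the rarest, with 13.4, 21.2, 24.9 and 6.93 CPM in secretory-progenitor cells of mice 1, 4, 5 and 8 and 6.93, 23.6, 19.1 and 7.91 CPM in stem-progenitor cells, which overlapped. In enterocytes 3 of 4 mice had no UMI and mouse 4 had 1.03 CPM. Goblet cells had 0 UMIs in 287 cells, which allows a share of cells with a UMI of up to 1.045% (3 counts, counting error only). In deep crypt secretory cells only mouse 4 held any, at 23.2 CPM from 2 UMIs. Neighbouring subtypes in the order of Krt36 CPM all overlapped, and sums outside the epithelium reached 13.2 CPM, in the T cells named IELs of mouse 4.

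The shares of cells with a UMI gave the same leading subtype for each gene, except that goblet and stem-progenitor cells were level for Krt8. After each cell was thinned to 1000 UMIs, with shallower cells left out, Krt20 was detected in 41.6 to 57.7% of enterocytes (median 52.9%), Krt18 in 86.7 and 94.5% of tuft cells and Krt19 in 73.1 to 88.4% of stem-progenitor cells. Krt7 was detected in 16.8 to 28.4% of secretory-progenitor cells and Krt8 in 91.7 to 96.1% of stem-progenitor and 90.0 to 100% of goblet cells. Without thinning the medians were 75.6% for Krt20, 98.3% for Krt18, 96.3% for Krt19, 65.0% for Krt7 and 98.97% for Krt8 in stem-progenitor cells. Of the enterocytes 2534 of 2870 reached 1000 UMIs, of the stem-progenitor cells 2350 of 2378, of the secretory-progenitor cells 401 of 409, of the goblet cells 264 of 287, of the tuft cells 109 of 117 and of the deep crypt secretory cells 254 of 441. Mature B cells, which should lack keratins, gave the background at the same depth: 11.2 to 33.0% with Krt8, 2.14 to 7.89% with Krt18, 6.05 to 17.3% with Krt19, 0 to 3.96% with Krt20 and 0 to 0.739% with Krt7 in WT-labelled mice. Median UMIs per cell were 1893 in mature B cells, 2258 in enterocytes and 9138 in stem-progenitor cells. Krt19 was detected in 6.67 and 18.2% of tuft cells of mice 5 and 8, against 6.05 and 6.82% of the mature B cells of the same mice.

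Goblet cells had the highest share of cells with both Krt7 and Krt20 UMIs. At 1000 UMIs per cell, 22 of 264 goblet cells (8.33%) had both, 34 had Krt7 alone and 78 Krt20 alone. In enterocytes 16 of 2534 cells (0.631%) had both, in stem-progenitor cells 21 of 2350 (0.894%), in secretory-progenitor cells 1 of 401 (0.249%), and none of 254 deep crypt secretory or 109 tuft cells did. Each gene was also frequent by itself in goblet cells, with medians over mice of 23.3% for Krt7 and 30.0% for Krt20. Whether both were found together more often than these shares give was not tested. The counts pool cells of several mice and stand as a description.

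The proportions of the keratins differed between subtypes, most of all among the type I genes. Krt18 UMIs per Krt8 UMI had a median over mice of 0.114 in stem-progenitor cells (0.0845 to 0.135) and 0.143 in enterocytes (0.111 to 0.165). The ratio was 0.447 in goblet cells, 0.512 in secretory-progenitor cells, 0.603 in deep crypt secretory cells and 0.753 and 0.958 in the tuft cells of the 2 mice. The lowest value in the last 4 subtypes, 0.358, was above the highest in the first 2. All type I UMIs of the 4 genes over those of Krt7 and Krt8 varied far less, from a median of 0.703 in stem-progenitor cells and 0.713 in enterocytes to 0.939 in deep crypt secretory cells (0.858 to 1.02). The sum of the 6 keratins was highest in stem-progenitor cells (median 9385 CPM), goblet (9014 CPM) and tuft cells (8598 CPM), and lowest in secretory-progenitor cells (3964 CPM).

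**Figure D2:**
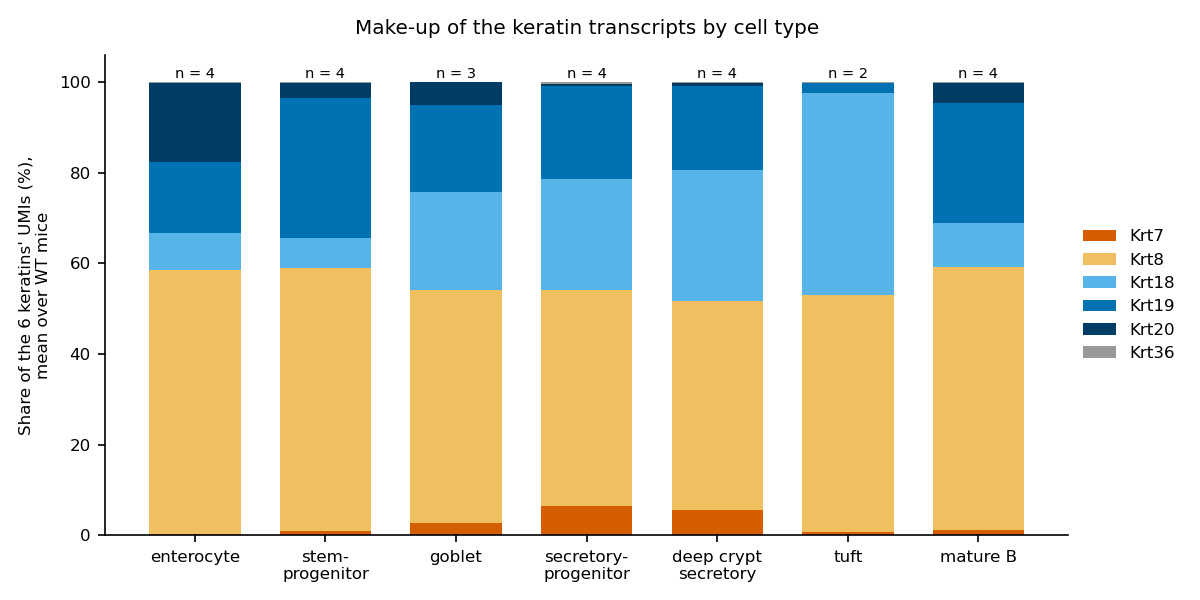
Share of each keratin among the UMIs of the 6 keratins (vertical axis, percent, mean over the WT-labelled mice named above each bar) in the 6 named epithelial subtypes and in mature B cells. Krt8 holds the largest share in every bar. Krt18 has a larger share than Krt19 in deep crypt secretory, secretory-progenitor and goblet cells, and most of all in tuft cells. Krt19 takes the larger part of the type I share in stem-progenitor cells, and Krt20 reaches its largest share in enterocytes.

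The genes most like each keratin over the 21 WT-labelled sums were taken by Pearson correlation of log2(CPM + 10) among 5511 genes that reached 50 CPM in at least 1 sum. For Krt20 they were Pmp22 (0.97), Lypd8 (0.95), a protein of colonic enterocytes that keeps bacteria from the epithelium, and Lamb3 (0.95), a laminin chain of the basement membrane. Krt7 was followed by Ly6e (0.95), the ion pump regulator Fxyd3 (0.94) and Tnfaip8 (0.94). Krt8 had the organic anion exporter Abcc3 (0.92), the glutathione transferase Mgst3 (0.92) and Serpinb1a (0.88), and Krt19 had Serpinb6a (0.88), S100a14 (0.87) and the calcium-binding S100a6 (0.86). Krt18 had the kinase gene Plk2 (0.89), Dpysl2 (0.84) and Gadd45g (0.84), and Krt36 had the inositol synthesis enzyme Isyna1 (0.90), Trap1 (0.88) and Msl2 (0.86). Krt36 itself reached at most 24.9 CPM in these sums, under the 50 CPM asked of the other genes, so its correlations rest on few UMIs. The closest match of a keratin was never another of the 6, and the highest value among them was 0.53, between Krt8 and Krt20. The sums share mice and libraries, and these values are a description.

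Keratin UMIs were also counted in cells not known to make them, at a level that differed between mice. In mature B cells Krt8 stood at 242, 425, 118 and 127 CPM in WT-labelled mice 1, 4, 5 and 8 and at 221, 268, 58.8 and 67.5 CPM in KO-labelled mice 2, 3, 6 and 7. As a share of the Krt8 level in the epithelial cells of the same mouse this was 8.57 to 12.7% in mice 1 to 4 and 1.43 to 3.49% in mice 5 to 8. The Krt18 to Krt8 ratio was 0.0909 to 0.205 in mature B cells of the 8 mice and 0.131 to 0.203 in all their epithelial cells. Within a mouse it was close in mouse 3 (0.179 in B cells against 0.181). It was higher in B cells of mouse 1 (0.188 against 0.131) and lower in those of mouse 6 (0.152 against 0.203). Mouse 8 had 0.0909 against 0.138, from 34 keratin UMIs in its B cells. Over 116 sums of a mouse and a non-epithelial type of at least 20 cells, the highest Krt8, Krt18, Krt19 and Krt20 values, 910, 207, 410.02 and 61.3 CPM, were all in the T cells named inactive of mouse 4. Krt7 had no UMI in 59 and Krt36 none in 93 of the 116 sums. Over the 21 WT-labelled sums of a named epithelial subtype, the lowest Krt8 value was 1365 CPM and the lowest Krt18 value 292 CPM. Both lay above every non-epithelial sum, while the lowest values of Krt7, Krt19, Krt20 and Krt36 did not. Epithelial cells without a name could be lower: cluster 3 of WT-labelled mice had Krt8 at 429 to 709 CPM and Krt18 at 68.8 to 170 CPM.

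**Figure D3:**
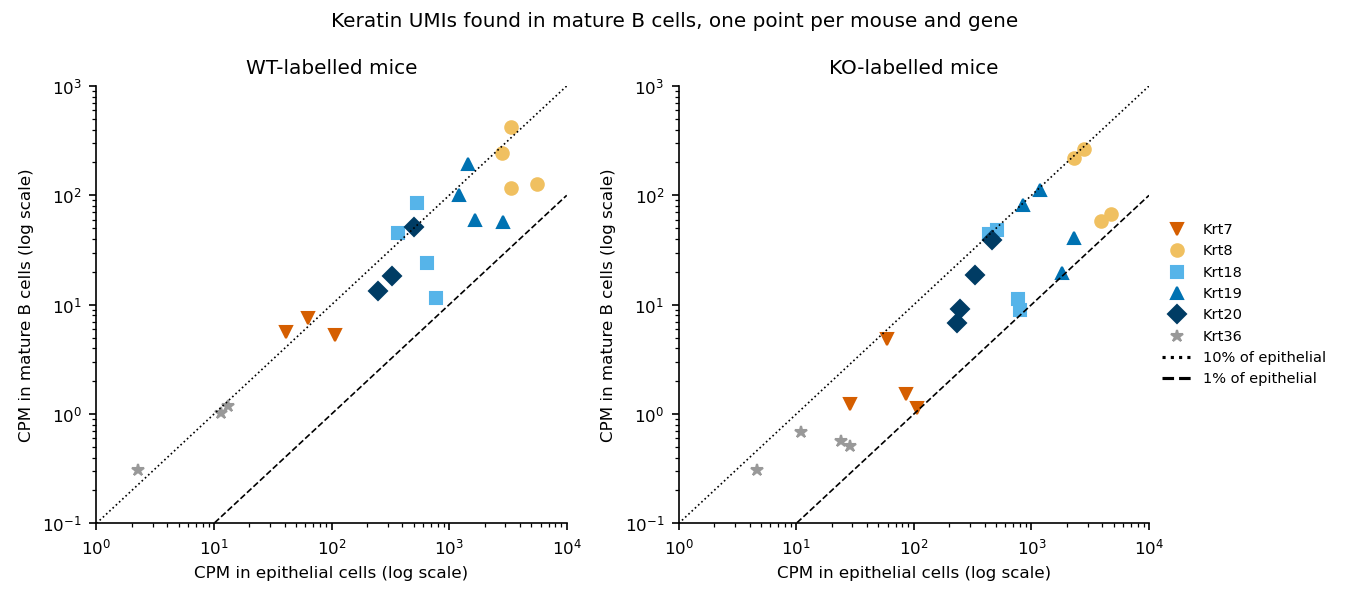
Keratin level in mature B cells (vertical axis, CPM, log scale) against the level in all epithelial cells of the same mouse (horizontal axis, CPM, log scale) for the 4 WT-labelled and the 4 KO-labelled mice, with a symbol for each gene and lines at 10% and 1% of the epithelial level. Points lie at up to 16.1% of the epithelial level, and Krt7, Krt20 and Krt36 of mouse 8, with 0 UMIs in mature B cells, cannot be drawn on the log axes.

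Between the genotypes, none of the 6 keratins passed the test in the sums of all epithelial cells. Values are TMM-scaled CPM with SD over 4 mice per label, and tests are edgeR's quasi-likelihood F test on UMIs summed per mouse with Benjamini-Hochberg adjustment over the 11723 genes tested, of which 0 (0%) were called at the threshold of 0.05. The count at an unadjusted p below 0.05 was 96, and with DESeq2 0 genes were called. In such sums a changed share of a subtype and a changed level within it cannot be told apart. The labels do not say that the mice of a group came from separate litters, and the p-values measure the spread between these mice.

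Krt8 was at 3445, 3212, 3164 and 3601 CPM in KO-labelled mice 2, 3, 6 and 7 and at 3732, 3575, 2893 and 4427 CPM in WT-labelled mice 1, 4, 5 and 8. The KO-labelled values lay inside the WT-labelled range, with means of 3355 ± 205 and 3657 ± 630 CPM (SD, n = 4 each) and a log2 difference, KO-labelled over WT-labelled, of -0.12 ± 0.22 (SE; 95% interval -0.61 to 0.36; edgeR adjusted p = 0.9999). Krt18 was at 650, 583, 642 and 583 CPM in KO-labelled mice and 490, 573, 557 and 609 CPM in WT-labelled mice, and 2 of the 4 KO-labelled mice lay above all WT-labelled ones. Its log2 difference was 0.14 ± 0.16 (interval -0.21 to 0.49). The interval for Krt8 excludes a fall or rise of 2-fold (1 on the log2 scale), and so does that for Krt18.

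Krt19 was at 1271, 1366, 1450 and 1772 CPM in KO-labelled and 1595, 1555, 1425 and 2298 CPM in WT-labelled mice, with mouse 8 highest. The groups overlapped, at means of 1465 ± 217 and 1718 ± 393 CPM, a log2 difference of -0.23 ± 0.22 (interval -0.73 to 0.27). Krt20 was at 697, 379, 198 and 177 CPM in KO-labelled and 430, 542, 211 and 337 CPM in WT-labelled mice. Mice 5, 6 and 7 were low and mice 2 and 4 high whatever their label, so the groups overlapped, with a log2 difference of -0.07 ± 0.44 (interval -1.06 to 0.92). Krt20 was 0.15 in mice 1 to 4 alone and -0.56 in mice 5 to 8 alone. Krt7 was at 43.1, 68.2, 69.1 and 81.1 CPM against 54.5, 67.2, 92.0 and 50.2 CPM, a log2 difference of -0.01 ± 0.24 (interval -0.54 to 0.51), with the groups covering nearly the same range.

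Krt36, the least abundant of the 6, had the largest difference and also the fewest UMIs, 18 to 245 per mouse. It was at 6.90, 12.6, 23.1 and 18.4 CPM in KO-labelled mice 2, 3, 6 and 7 and at 2.96, 12.4, 11.4 and 5.34 CPM in WT-labelled mice 1, 4, 5 and 8. In all, 3 of the KO-labelled mice lay above all WT-labelled ones and mouse 2 lay among them, with means of 15.2 ± 7.02 and 8.01 ± 4.58 CPM (SD, n = 4 each). The log2 difference was 0.91 ± 0.45 (interval -0.10 to 1.92; unadjusted p = 0.0719, edgeR adjusted p = 0.9999), so it did not pass the test. It was 0.29 in mice 1 to 4 alone and 1.31 in mice 5 to 8 alone, and 0.64 without mouse 6. Of the 11723 genes, 87 (0.742%) had groups that did not overlap, and none of the 6 keratins was among them.

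**Figure D4:**
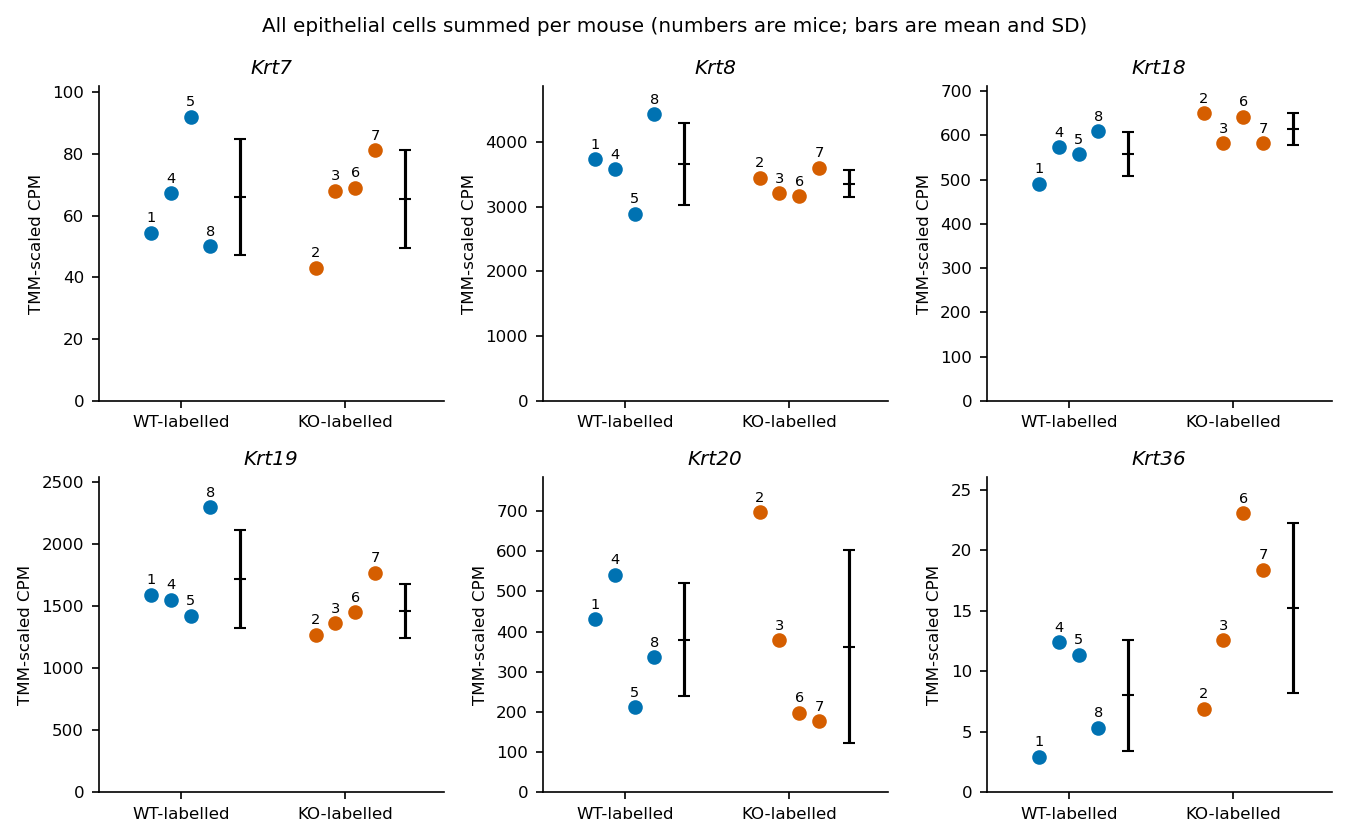
TMM-scaled CPM of the 6 keratins (vertical axes, linear, from 0) in the sum of all epithelial cells of each of the 4 WT-labelled and 4 KO-labelled mice, with the mouse number above each point and a bar for the mean and SD. The groups overlap for every gene. In Krt36 the KO-labelled mice 3, 6 and 7 are above the WT-labelled mice, from 12.6 to 23.1 CPM against at most 12.4 CPM.

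The authors' clusters, which carry cells of both labels, allowed a closer match of cell kinds. Of the WT-labelled cells with a name, cluster 4 held 2096 enterocytes of 2103 and cluster 8 held 601 of 603, cluster 5 held 1942 stem-progenitor cells of 2114, cluster 18 held 418 deep crypt secretory cells of 420, and cluster 14 held 414 stem-progenitor and 402 secretory-progenitor cells of 1109. Clusters 3, 6, 10 and 16 held at most 16 named cells each. Cluster 25, with 112 tuft cells, had 20 or more cells in 2 mice only, both WT-labelled, and was not tested. Of the 42 tests of a keratin in 9 clusters 0 were called by edgeR, as were 0% of all genes in each cluster. There were 19 higher and 23 lower values in KO-labelled mice, 3 tests with an unadjusted p below 0.05 and a lowest adjusted p of 0.4537. These 3 were in clusters 5, 14 and 18, where 169 of 10048, 325 of 9109 and 124 of 1164 genes had such a p. DESeq2 was not run by cluster.

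Krt36 was tested in clusters 5 and 14. In cluster 5, mostly stem-progenitor cells, it was at 16.3, 28.8, 31.8 and 22.4 CPM in KO-labelled mice 2, 3, 6 and 7 and at 5.13, 21.0, 15.3 and 8.59 CPM in WT-labelled mice 1, 4, 5 and 8. The KO-labelled mice 3, 6 and 7 lay above all WT-labelled ones and mouse 2 above 3 of them. The log2 difference was 1.00 ± 0.33 (interval 0.28 to 1.71; unadjusted p = 0.0104, edgeR adjusted p = 0.9999). In cluster 14 the means were 28.4 ± 15.0 and 15.1 ± 8.64 CPM, and the log2 difference was 1.00 ± 0.45 (unadjusted p = 0.0451, edgeR adjusted p = 1). The cells of these clusters are part of the sum of all epithelial cells, so the 3 values are not independent.

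Krt7 in cluster 18, mostly deep crypt secretory cells, was at 342, 560 and 861 CPM in KO-labelled mice 3, 6 and 7 and at 339, 442, 342 and 214 CPM in WT-labelled mice 1, 4, 5 and 8. Mice 6 and 7 lay above every WT-labelled mouse and mouse 3 among them, with a log2 difference of 0.82 ± 0.36 (unadjusted p = 0.0428, edgeR adjusted p = 0.4537). Krt18, Krt8 and Krt19 in the same cluster had 0.47, 0.36 and 0.31. In the other 4 clusters where Krt7 was tested its values ran from -0.28 to 0.26.

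Krt19 and Krt20 each had 1 cluster in which the labels did not overlap. Over all genes tested, the share whose groups did not overlap was 2.55, 3.08, 1.15, 1.59, 1.61, 8.69, 2.57, 2.53 and 10.2% in clusters 3, 4, 5, 6, 8, 10, 14, 16 and 18. In cluster 5 Krt19 was at 2689, 2771, 2532 and 2872 CPM in KO-labelled and 3362, 3147, 2920 and 3964 CPM in WT-labelled mice, every KO-labelled value lower (log2 difference -0.30 ± 0.19, edgeR adjusted p = 0.9999). In cluster 10, with 3 mice per label, Krt20 was at 229.7 ± 74.0 and 327.4 ± 30.5 CPM (log2 difference -0.42 ± 0.35, edgeR adjusted p = 0.9992). Over their tested clusters Krt8 ran from -0.20 to 0.36, Krt18 from -0.30 to 0.47, Krt19 from -0.35 to 0.31 and Krt20 from -0.42 to 0.52.

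**Figure D5:**
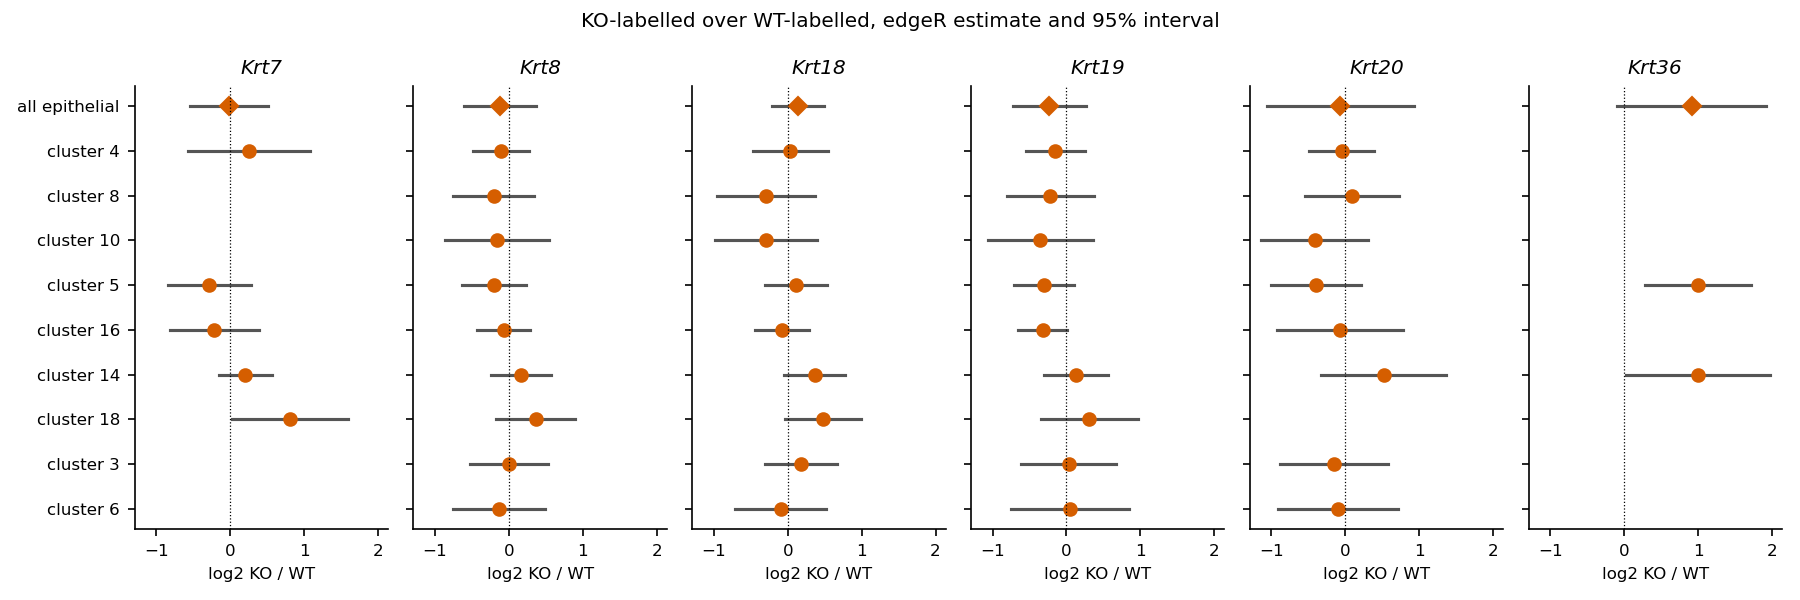
Log2 difference, KO-labelled over WT-labelled, from edgeR (horizontal axes) with its 95% interval for each keratin in the sum of all epithelial cells (diamond) and in each tested cluster (circles, rows); a row without a mark was not tested for that gene. Intervals cross 0 except for Krt36 in clusters 5 and 14 and Krt7 in cluster 18, none of which passed the adjusted threshold.

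For clusters rich in mitochondrial UMIs, keratin levels were also taken with those UMIs left out of the denominator. In cluster 3, with a median of 86.2% mitochondrial UMIs per cell, Krt8 had a median over WT-labelled mice of 607 CPM of all UMIs and 4616 CPM of the other UMIs. Its values of all UMIs, 429 to 709 CPM, lay within the non-epithelial range, which reached 910 CPM in the inactive T cells of mouse 4. Clusters 6 and 10, with medians of 76.6 and 68.0% mitochondrial UMIs, lay partly within that range. Their Krt8 was at 847 to 1391 and 666 to 1272 CPM in WT-labelled mice. How much of the keratin UMIs of clusters 3, 6 and 10 is background was not tested. The enterocyte cluster 4, with 34.5% mitochondrial UMIs, had 3185 and 4524 CPM. Krt20 in cluster 3 was at 371 CPM of non-mitochondrial UMIs against 1391 CPM in cluster 4 and 1081 CPM in the other enterocyte cluster, 8. Cluster 16, with 0.26% mitochondrial UMIs and 1037 UMIs per cell in the median, had Krt8 at 5786 and Krt20 at 98.3 CPM of non-mitochondrial UMIs, against 8081 and 579 CPM in the stem-progenitor cluster 5. Its Krt20 was thus below that of clusters 4 and 5, and its Krt8 between theirs.

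In 6 classes outside the epithelium, keratin UMIs could be tested 18 times, and 0 of the 18 differences were called by edgeR. All 18 values were lower in KO-labelled mice and 6 had an unadjusted p under 0.05. Over all genes such a p was found for 109 of 10444 in B cells, 72 of 1533 in endothelium, 197 of 11023 in fibroblasts, 138 of 3425 in lymphatics, 147 of 5407 in macrophages and 157 of 8706 in T cells. In the finer subtypes, which were not tested, some KO-labelled means were higher, such as Krt19 in SMA-pos myofibroblasts (41.5 against 22.2 CPM). These myofibroblasts held only 24 Krt19 UMIs in 173 cells of 8 mice. At most 3 mice, of both labels together, had enough myofibroblasts for a sum. The KO-labelled and WT-labelled means thus do not both rest on more than 1 mouse. Called genes of any kind were 0.146% of 3425 in lymphatics, 0.111% of 5407 in macrophages and 0% in B cells, T cells, fibroblasts and endothelium. Endothelial Krt8 had the largest difference, at 241, 42.6 and 30.7 CPM in KO-labelled mice 3, 6 and 7 and 319.6, 290.2 and 282 CPM in WT-labelled mice 4, 5 and 8 (log2 difference -2.15 ± 0.56, edgeR adjusted p = 0.4515), and was the only 1 of the 18 whose groups did not overlap. The share of all genes whose groups did not overlap was 10.1% in endothelium, 1.06% in B cells, 1.82% in fibroblasts, 5.34% in lymphatics, 4.99% in macrophages and 1.26% in T cells. Epithelial cells made up 22.2 and 23.8% of all cells in mice 6 and 7, KO-labelled and the lowest shares, against 56.5 and 51.4% in the KO-labelled mice 2 and 3 and 40.7 to 78.3% in the WT-labelled mice. The part of that share in the lower values was not tested, and the 18 tests share mice and background.

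No gene of the lists that work with keratins passed the test either. Of 14 desmosome and linker genes, which tie keratin filaments to cell junctions, all were tested in the epithelial sums, 5 were higher and 9 lower in KO-labelled mice and 0 were called (edgeR, median log2 difference -0.05 against 0.002 over all genes). The smallest p-values were those of the desmosomal cadherin Dsc2 (43.9 against 51.0 CPM, log2 difference -0.22) and plakophilin Pkp2 (24.5 against 21.2 CPM, 0.21). Of 12 factors of intestinal epithelial identity 5 were higher, 7 lower and 0 called (median -0.04), among them the homeobox factor Cdx2 at 41.6 ± 15.8 against 64.7 ± 31.0 CPM (-0.65 ± 0.35). Of 9 other intermediate filament genes 4 could be tested and 0 were called, with Vim, the filament of mesenchymal cells, at 22.0 against 12.2 CPM (0.86 ± 0.43) and the lamin Lmnb2 at 20.9 against 20.3 CPM (0.05).

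The other 47 keratin genes were rare. Of these, 9 had 100 or more UMIs in all cells, 30 had 1 to 99 and 8 had 0. Krt23, a type I keratin, stood out in tuft cells with 219 CPM (112 UMIs in 117 cells, found in 4 mice) against 7.64 CPM in stem-progenitor cells. Krt15 and Krt14, keratins of basal cells, were at 6.36 and 4.26 CPM in stem-progenitor cells. Some were also found outside the epithelium. Krt10 reached 29.4 CPM in fibroblasts against up to 15.97 CPM in the epithelial subtypes, Krt80 23.5 CPM in macrophages and Krt83 20.8 CPM in T cells, which held 277 of its 400 UMIs. In the epithelial genotype comparison 6 of the 47 could be tested, 4 higher and 2 lower, with 0 called by edgeR, and Krt12 at 3.10 against 1.48 CPM (log2 difference 1.10) and Krt15 at 2.62 against 3.37 CPM (-0.36) had the smallest p-values.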

How the data were processed

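Single-cell 3′ libraries of 4 KO-labelled and 4 WT-labelled mice were analysed from the deposited matrix of raw UMI counts, made with Cell Ranger 3.0.2 on mm10, per the submitters' processing notes. Per the labels' protocols, annexin V selection took out dead cells, and all samples were run on 1 day. The counting of reads that match related keratin copies is not given in the sources used here, nor is the way cells were clustered and annotated. The deposited cell table gives each cell a mouse, cluster, class, subtype and size factor, a ratio of its total to the cells' geometric mean. The authors' UMAP coordinates, a score, were not used. Table lines were matched to matrix columns by sorting on mouse and barcode, since all 53080 size factors then matched the totals so scaled (tolerance 1e-06) and 16 did in file order.

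Doublets named by the authors were left out. UMIs were summed per mouse and type (at least 20 cells). Genotypes were compared where at least 3 mice per label had such a sum, with edgeR 4.0.16 in R 4.3.3 (TMM, filterByExpr, quasi-likelihood F test, Benjamini-Hochberg, 0.05) and DESeq2 1.42.0 as an alternative. In simulated epithelial counts of 11518 genes, edgeR recovered 39% of 2-fold and 86% of 4-fold changes. Detection was read after thinning cells to 1000 UMIs. Sums and descriptions were made in Python 3.11.15 (pandas 2.3.3, numpy 2.4.6, scipy 1.17.1), figures in matplotlib 3.10.9. Intervals cover 95%, and intervals and limits from counts cover counting error only.

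Named genes were the 6 keratins, in each gene list the 2 members with the smallest unadjusted p in epithelial cells, and for each keratin the 3 most correlated genes. A gene of the list of identity factors that the rule names is not reported here. Krt23, Krt10, Krt80, Krt83 and Krt14 were singled out after their values were seen. The 6 keratins and the lists were chosen with earlier results of these data known.

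Alternatives were DESeq2, no filter on low counts, cells under 50% mitochondrial UMIs, doublets kept, a term for mice 1 to 4 against 5 to 8, leaving out each mouse, and thinning to 500 and 2000 UMIs. Added after seeing the data were mitochondrial genes or UMIs left out, barcodes of 1 library only, mice 1 to 4 or 5 to 8 alone, and cells not thinned.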

Additional observations from a re-analysis of the deposited data

Results flagged for a closer look

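Among 120 groups of 4 mice looked at for a keratin, 8 had a single mouse far from the other 3 (Dixon's criterion at 95%, which chance meets in about 1 of 20 groups). In KO-labelled mice, mouse 2 had Krt18 at 1045 TMM-scaled CPM in cluster 16 (next 937) and Krt20 at 628 in the enterocyte cluster 8 (next 416), and mouse 3 had Krt7 at 4.83 CPM in mature B cells (next 1.53). In WT-labelled mice, mouse 4 had Krt20 at 1128 TMM-scaled CPM in the enterocyte cluster 4 (next 931), and Krt36 at 1.03 CPM in enterocytes and 23.2 CPM in deep crypt secretory cells, where the other mice had 0. With the other mice at 0, any UMI meets the criterion, so the rate of 1 in 20 does not apply to the Krt36 flags. The value in deep crypt secretory cells came from 2 UMIs. Mouse 8 had the low values, Krt7 at 45.0 CPM in stem-progenitor cells (next 87.6) and Krt8 at 1365 CPM in deep crypt secretory cells (next 2212).

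Cells that the authors named doublets with epithelium, which entered no comparison, carried keratins above the other doublets. Krt8 was at 1551 CPM in the 34 of the B cell class, 664 CPM in the 179 of the T cell class and 699.5 CPM in the 255 of the fibroblast class. Doublets with macrophages in the T cell and fibroblast classes had 111 and 51.7 CPM.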

How the results depend on the processing

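Under DESeq2, the other filters, cell sets and covariate, and either set of 4 mice alone, no keratin passed the adjusted threshold. Leaving out each mouse gave log2 differences of -0.14 to 0.19 for Krt7, -0.22 to -0.02 for Krt8, 0.07 to 0.19 for Krt18, -0.34 to -0.06 for Krt19, -0.62 to 0.16 for Krt20 and 0.64 to 1.16 for Krt36, with 0 to 0 genes called. The sign of Krt7 turned to 0.008 in cells under 50% mitochondrial UMIs, 0.068 in mice 5 to 8, 0.12 without mouse 2 and 0.19 without mouse 5. That of Krt20 turned to 0.15 in mice 1 to 4, 0.16 without mouse 4, 0.13 without mouse 6 and 0.16 without mouse 7. The cause was not tested. In mice 5 to 8 alone edgeR called 4 of 12720 genes and 633 had an unadjusted p under 0.05, and none of the 4 was one of the 6 keratins. No paired analysis was possible because the labels share no mouse numbers.

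With mitochondrial UMIs left out of the denominator, Krt8 and Krt19 in stem-progenitor cells had medians of 6982 and 3589 CPM and Krt20 in enterocytes 1392 CPM, and Krt8 in enterocytes moved to a median of 4771 CPM and no longer lay apart from tuft cells. Thinning to 500 or 2000 UMIs changed the medians of detection to 12.4 and 36.9% for Krt7, 81.8 and 97.8% for Krt8, 80.0 and 98.9% for Krt18, 62.98 and 92.8% for Krt19 and 33.3 and 73.8% for Krt20 in their leading subtypes, and unthinned Krt36 was at 5.65%. Depth limits Krt36, which had 18 UMIs in the epithelial cells of mouse 1.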

Other observations

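Within the fibroblast class, 8 cells that the authors named SMA-pos, from 3 mice and with 103158 UMIs in all, carried Krt7, Krt8, Krt18 and Krt19 but hardly any Krt20. Krt18 was at 591 CPM, Krt7 at 582 CPM, Krt19 at 572 CPM and Krt8 at 407 CPM, while Krt20 had 1 UMI and Krt36 0. Krt7 UMIs were in 3 of the 8 cells, those of Krt8 and Krt18 in 4 and those of Krt19 in 5. The epithelial markers Epcam, Cdh1 and Vil1 had 0 UMIs in these cells. The mesothelial markers Upk3b, Msln and Wt1 were at 1270, 582 and 407 CPM, each in 4 of the 8 cells, and at 0 UMIs in the 173 SMA-pos cells of the myofibroblast class, where Krt7 had 1 UMI. Krt7 was thus higher relative to Krt8 there than in any named epithelial subtype. The 8 cells are under the minimum of 20 cells per sum and entered no comparison.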
